A study of Mus musculus with 6 samples.

Results

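The 10 genes described here encode E-cadherin (*Cdh1*) and its partners at the contacts between epithelial cells: *Cdh17*, *Ctnnd1*, *Jup*, *Epcam*, *Pkp2*, *Pkp3*, *Dsp*, *Vcl* and *Afdn*. They are 10 of the 34866 genes in the deposited table, were found by their Ensembl identifiers through GENCODE M21, and all 10 passed the filter on low counts that left 16536 genes. They were taken up because *Cdh1* was lower in ApcMin than in Apc1322T adenomas, so the genotype difference of *Cdh1* is given as a description without a test. The study sequenced RNA of excised intestinal adenomas from 3 ApcMin/+ and 3 Apc1322T/+ mice on the C57BL/6J background, aged between 100 and 120 days. The mice of both groups carry 1 mutant germline copy of *Apc*. The study traces each ApcMin adenoma to loss of heterozygosity at this gene in a single epithelial cell. *Apc* encodes a scaffold protein that marks β-catenin for destruction. The ApcMin product is a short truncation that has lost this activity, whereas the longer Apc1322T product keeps part of it. The labels give no other engineered allele and no treatment for either group. The study describes a sample as several RNA extractions from 1 mouse, typically pooled, so a library is the mean of several pieces of whole tissue. Adenomas of both genotypes thus contain epithelium together with stroma, muscle, vessels and blood cells, and no normal tissue was included.

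Epithelial cells hold on to one another at adherens junctions and desmosomes. In the adherens junction, E-cadherin joins its counterpart on the next cell and is tied to actin through β-catenin and α-catenin. Vinculin and afadin are further links, and p120-catenin binds the tail of E-cadherin next to the membrane. In the desmosome, desmogleins and desmocollins are tied to keratin filaments through plakoglobin, the plakophilins and desmoplakin. E-cadherin and *Apc* share β-catenin as a partner, which is why these genes are of interest in intestinal tumours.

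The libraries held between 23132461 and 33518324 estimated counts, at which 3 counts correspond to between 0.0895 and 0.130 CPM (counts relative to the library total, with TMM scaling in all log2 CPM values given here). The 10 genes were far above this limit, with between 1402 (*Pkp2*) and 75302 (*Epcam*) counts in a library. The spread between libraries was narrow: the median SD of the 10 genes over the 3 libraries of a genotype was 0.091 log2 CPM in Apc1322T and 0.089 in ApcMin adenomas, beside 0.205 and 0.186 over all genes tested. The markers of intestinal epithelium set for this check (*Krt8*, *Krt18*, *Krt19*, *Cldn3*, *Lgals4*, *Tspan8*, *Vil1*, *Ezr*, *Gpa33* and *Phgr1*) were all expressed in all 6 libraries, so that epithelium is present as the label states.

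Levels of different genes can be compared only per length, and for this each CPM was divided by the length of the longest annotated transcript in kilobases. On this log2 scale *Epcam* was the most abundant of the 10, with a mean of 10.16 over the 6 libraries, followed by *Cdh17* (8.26), *Cdh1* (7.83), *Jup* (6.99) and *Ctnnd1* (6.53). Then came *Dsp* (5.90), *Pkp3* (5.68), *Pkp2* (4.44), *Afdn* (4.13) and *Vcl* (4.01). The membrane proteins thus ranked above the plaque proteins, and the actin linkers afadin and vinculin ranked last. The library ranges of some neighbours overlapped: those of *Cdh17* and *Cdh1*, of *Ctnnd1* and *Dsp*, of *Dsp* and *Pkp3*, and of *Afdn* and *Vcl*. Within a library *Dsp* was above *Pkp3* in 5 of 6, and *Cdh17* above *Cdh1* in all 6, but in only 3 of 6 with the length of all exons merged and in 4 of 6 with the coding length. The order of *Jup* and *Ctnnd1*, of *Pkp2* and *Afdn* and of *Afdn* and *Vcl* depended on which length was used.

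**Figure D1:**
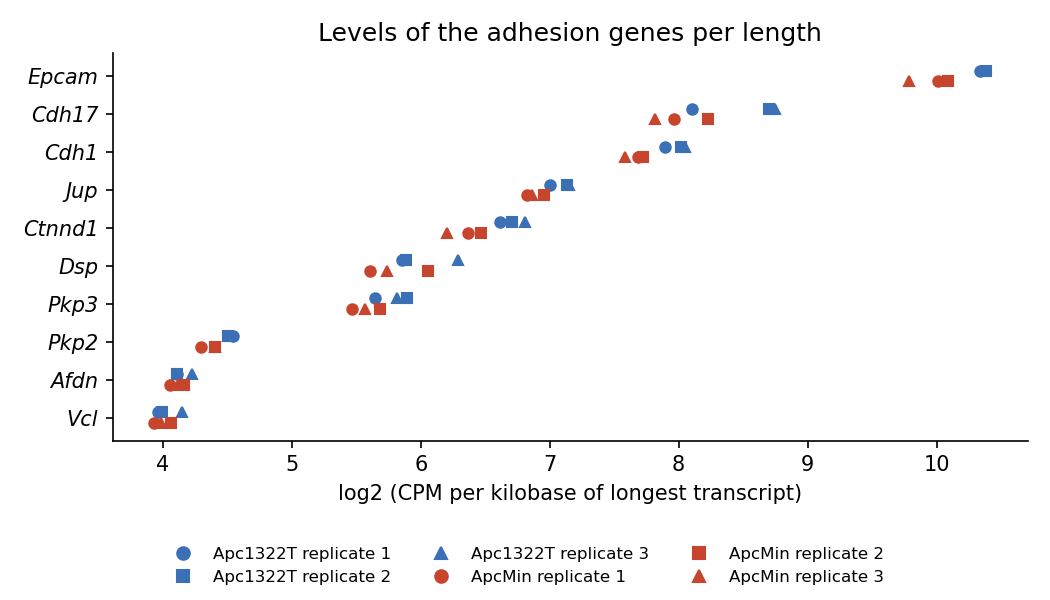
Level of each gene per length in each library, as log2 of CPM per kilobase of the longest transcript, with *Epcam* at the top and *Vcl* at the bottom. Blue symbols are Apc1322T and red symbols ApcMin libraries, and the symbol shape gives the replicate. *Epcam*, at a mean of 10.16, stands clear of all others, and *Afdn* and *Vcl* lie close together at 4.13 and 4.01.

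The 2 cadherins were lower in ApcMin adenomas, *Cdh1* without overlap between the genotypes and *Cdh17* with overlap. *Cdh1* (ENSMUSG00000000303, GRCm38 chr8:106603351-106670246, plus strand) stood at 10.04, 10.16 and 10.20 log2 CPM in Apc1322T replicates 1, 2 and 3, and at 9.84, 9.87 and 9.73 in ApcMin replicates 1, 2 and 3. All 3 ApcMin libraries lay below all 3 Apc1322T libraries, with ApcMin replicate 3 lowest. The mean was 10.13 ± 0.082 (SD, n = 3) in Apc1322T and 9.81 ± 0.071 (SD, n = 3) in ApcMin, a fitted log2 fold change of -0.32 with a standard error of 0.10. In linear terms the *Cdh1* level differed by -20.1%, from 1125 CPM on average in Apc1322T to 899 CPM in ApcMin. This is the contrast the genes were selected on, and *Cdh1* held position 2296 of 16536 when genes were ordered from the lowest fold change.

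*Cdh17*, the liver-intestine cadherin, which binds homophilically at the lateral membrane of enterocytes without the classical catenins, gave the widest spread of the 10 in Apc1322T. Its log2 CPM values were 9.89, 10.49 and 10.54 in Apc1322T replicates 1, 2 and 3, and 9.76, 10.02 and 9.61 in ApcMin replicates 1, 2 and 3. Apc1322T replicate 1 stood apart from the other two of its genotype and fell within the ApcMin range. This was not particular to *Cdh17*, since that library was the lowest of its genotype for 8 of the 10 genes. By chi-square per gene between the counts of 2 libraries, it differed by 58.7, 78.3 and 51.9 from ApcMin replicates 1, 2 and 3. It differed by 86.8 and 97.6 from Apc1322T replicates 2 and 3. ApcMin replicate 2 likewise differed by 50.9 from Apc1322T replicate 3, and by 60.6 and 94.3 from ApcMin replicates 1 and 3. This measure also grows with the number of counts in the libraries. The log2 fold change of *Cdh17* was -0.53 with a standard error of 0.20, the lowest of the 10, and did not pass the test (adjusted p = 0.312, edgeR's quasi-likelihood test). The ratio of *Cdh17* to *Cdh1* within a library was taken as a log2 difference of CPM per kilobase of the longest transcript. It averaged 0.53 ± 0.28 in Apc1322T and 0.34 ± 0.15 in ApcMin (SD, n = 3 each), and the libraries overlapped.

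The 2 catenin-family genes among the 10 were also lower in every ApcMin library than in any Apc1322T library. *Ctnnd1* encodes p120-catenin, which binds next to the membrane on the tail of E-cadherin and protects it from endocytosis. It stood at 9.28, 9.38 and 9.48 log2 CPM in Apc1322T replicates 1, 2 and 3 and at 9.04, 9.13 and 8.87 in ApcMin replicates 1, 2 and 3, again with ApcMin replicate 3 lowest. Its log2 fold change was -0.36 with a standard error of 0.11 (adjusted p = 0.282, edgeR). The annotated gene *Gm28635* shares 4482 exon bases with *Ctnnd1* on the same strand, but had 0 counts in every library. *Jup* encodes plakoglobin, a close relative of β-catenin that serves both adherens junctions and desmosomes. Its values were 8.68, 8.81 and 8.83 log2 CPM in Apc1322T replicates 1, 2 and 3 and 8.50, 8.64 and 8.54 in ApcMin replicates 1, 2 and 3, so that the groups were separated by a margin narrower than either group's own range. The log2 fold change of *Jup* was -0.21 with a standard error of 0.092 (adjusted p = 0.338, edgeR).

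*Epcam*, the epithelial cell adhesion molecule, is a calcium-independent adhesion protein of the lateral membrane that stabilises claudin-7. It stood at 11.36, 11.41 and 11.40 log2 CPM in Apc1322T replicates 1, 2 and 3, and at 11.04, 11.12 and 10.81 in ApcMin replicates 1, 2 and 3. The Apc1322T libraries were within 0.1 of one another while ApcMin replicate 3 lay well below the rest. The log2 fold change of *Epcam* was -0.39 with a standard error of 0.12 (adjusted p = 0.286, edgeR), and the groups did not overlap.

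The desmosome plaque genes, beside *Jup*, were *Pkp2*, *Pkp3* and *Dsp*, of which *Pkp2* alone did not overlap between the genotypes. *Pkp2*, for plakophilin 2, stood at 6.10, 6.06 and 6.06 log2 CPM in Apc1322T replicates 1, 2 and 3 and at 5.85, 5.96 and 5.95 in ApcMin replicates 1, 2 and 3. The log2 fold change of *Pkp2* was -0.15 with a standard error of 0.075 (adjusted p = 0.381, edgeR). *Pkp3*, for plakophilin 3, which binds most desmosomal cadherins, stood at 7.19, 7.44 and 7.37 against 7.02, 7.23 and 7.11 in the same order. Its groups overlapped through Apc1322T replicate 1 and ApcMin replicate 2, and the difference was -0.21 on the log2 scale with a standard error of 0.10 (adjusted p = 0.365, edgeR). *Dsp*, for desmoplakin, which anchors the plaque to keratin filaments, stood at 9.12, 9.14 and 9.55 against 8.86, 9.32 and 9.00 in the same order. Its highest Apc1322T library (replicate 3) and its highest ApcMin library (replicate 2) both stood apart from their groups, and the log2 fold change of -0.21 carried a standard error of 0.17 (adjusted p = 0.561, edgeR). It was -0.060 without Apc1322T replicate 3, -0.12 without ApcMin replicate 1 and -0.35 without ApcMin replicate 2. The ratio of *Pkp3* to *Pkp2*, again as a log2 difference of CPM per kilobase of the longest transcript, overlapped between the genotypes. It averaged 1.27 ± 0.15 in Apc1322T and 1.21 ± 0.062 in ApcMin (SD, n = 3 each).

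The actin linkers differed between the genotypes by less than their standard errors. *Vcl*, for vinculin, which is recruited to α-catenin under tension, stood at 6.36, 6.39 and 6.55 log2 CPM in Apc1322T replicates 1, 2 and 3 and at 6.33, 6.46 and 6.38 in ApcMin replicates 1, 2 and 3. *Afdn*, for afadin, which ties nectins to actin, stood at 7.06, 7.06 and 7.17 against 7.01, 7.12 and 7.07 in the same order. The ApcMin libraries of both genes lay within or just below the Apc1322T range. The log2 fold changes were -0.040 for *Vcl* (standard error 0.087, adjusted p = 0.837, edgeR) and -0.035 for *Afdn* (standard error 0.079, adjusted p = 0.845, edgeR), and both turned positive with upper quartile scaling. Vinculin is also abundant in smooth muscle and fibroblasts. *Vcl* shares 2090 exon bases with *Ap3m1* on the opposite strand, which had between 1373 and 2066 counts, and the library kit keeps the strand.

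**Figure D2:**
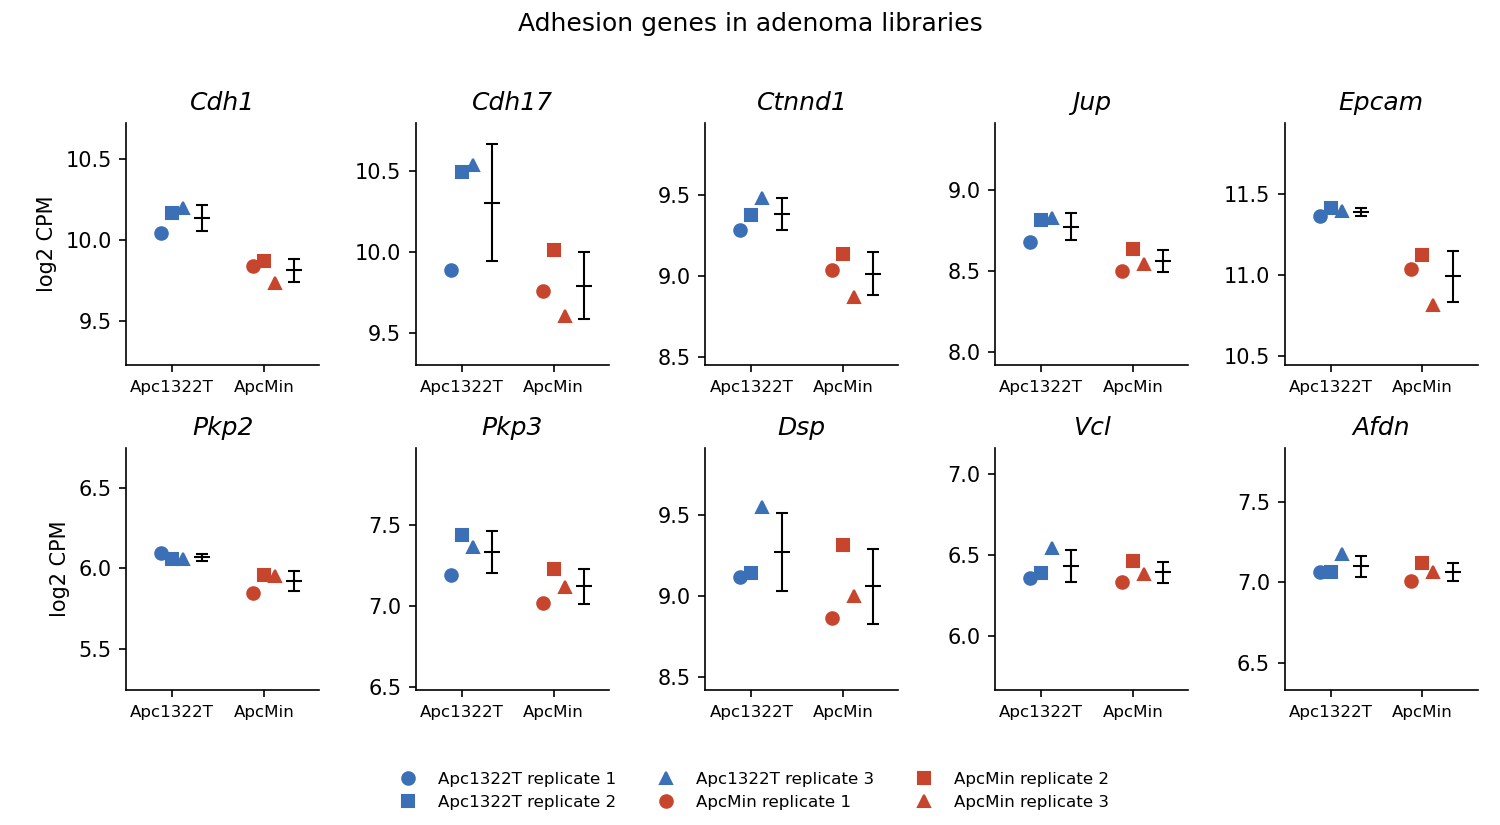
Log2 CPM of the 10 genes in each library, with Apc1322T in blue, ApcMin in red, the symbol shape giving the replicate, and a black bar for the mean and SD (n = 3). Each panel spans the same range on the log2 scale. The groups do not overlap for *Cdh1*, *Ctnnd1*, *Jup*, *Epcam* and *Pkp2*, and lie on top of each other for *Vcl* and *Afdn*.

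For all 10 genes the log2 fold change was below 0, beside 47.6% of all genes tested, although with upper quartile scaling only 8 of the 10 were below 0 and relative to the epithelial markers 2 of the 10. Their median was -0.21, beside 0.017 over all genes. In size the differences were like those of all genes, with a median absolute log2 fold change of 0.214 beside 0.212. The 10 genes varied less between libraries, however (median SD 0.091 in Apc1322T and 0.089 in ApcMin, beside 0.205 and 0.186). No comparison with genes of a similar level was made. The libraries of the genotypes did not overlap for 5 of the 10, namely *Cdh1* and 4 of the other 9, all lower in ApcMin, whereas 9.96% of all genes were lower and 11.0% higher without overlap. Without ApcMin replicate 2, 8 of the 10 did not overlap, when 31.7% of all genes did not. Of the other 9, 0 had an adjusted p under 0.01 with edgeR (0% of all genes), with limma-voom (0%) or with DESeq2 (1.12%). At an unadjusted p under 0.05, 3 of the other 9 were lower (*Ctnnd1*, *Epcam* and *Cdh17*) and 0 higher, beside 7.60% and 7.49% of all genes. That count was 0 without ApcMin replicate 3, 1 without Apc1322T replicate 2 or 3, 2 without ApcMin replicate 1, and 5 without Apc1322T replicate 1. The number of all genes under this p, in either direction, moved as well, from 2495 of 16536 with all 6 libraries. It was 1649 of 16709 without ApcMin replicate 3, and 1180 of 17059 and 1472 of 17057 without Apc1322T replicates 2 and 3. It was 1966 of 16731 without ApcMin replicate 1 and 4117 of 16851 without Apc1322T replicate 1.

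The epithelial markers were lower as well. Of these 10 markers, all 10 were lower in ApcMin, and remained so with each scaling to library totals, filter and library left out. For 6 of the 10 the groups did not overlap, beside 9.96% of all genes that were lower without overlap, and the median log2 fold change was -0.39. *Krt8*, the marker with the highest level, stood at 12.08, 12.28 and 12.36 log2 CPM in Apc1322T replicates 1, 2 and 3 and at 11.81, 12.03 and 11.87 in ApcMin replicates 1, 2 and 3 (a difference of -0.34 with a standard error of 0.14, adjusted p = 0.32, edgeR). *Cldn3* alone of the list passed with DESeq2, and 0 of the 10 passed with edgeR. Summed over the list, the markers made up between 12489 and 15296 CPM in the Apc1322T libraries and between 10521 and 12220 CPM in the ApcMin libraries. The markers did not move alike, with log2 fold changes from -0.60 (*Vil1*) to -0.077 (*Krt18*). In bulk tissue, fewer epithelial cells, less RNA per epithelial cell and other changes within these cells cannot be told apart.

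When each gene was instead expressed relative to the mean log2 CPM of the 10 epithelial markers of the same library, the genotypes overlapped for *Cdh1*. *Cdh1* lay above the marker mean by 0.36, 0.17 and 0.23 in Apc1322T replicates 1, 2 and 3 and by 0.34, 0.20 and 0.37 in ApcMin replicates 1, 2 and 3, a difference of 0.052 with overlapping groups. On this scale the differences of *Ctnnd1* (0.0082) and *Epcam* (-0.026) were also close to 0, whereas that of *Cdh17* was -0.14. *Jup* (0.16), *Pkp2* (0.23), *Pkp3* (0.16), *Dsp* (0.17), *Vcl* (0.34) and *Afdn* (0.34) were higher relative to the markers in ApcMin adenomas, of which *Pkp3*, *Vcl* and *Afdn* did so without overlap. These 3 of 10 compare with 33.1% of all genes whose libraries did not overlap on this scale. The marker mean itself differed by -0.37, which moves the median of all genes from 0.017 to 0.39, and the median of the 10 genes from -0.21 to 0.16.

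**Figure D3:**
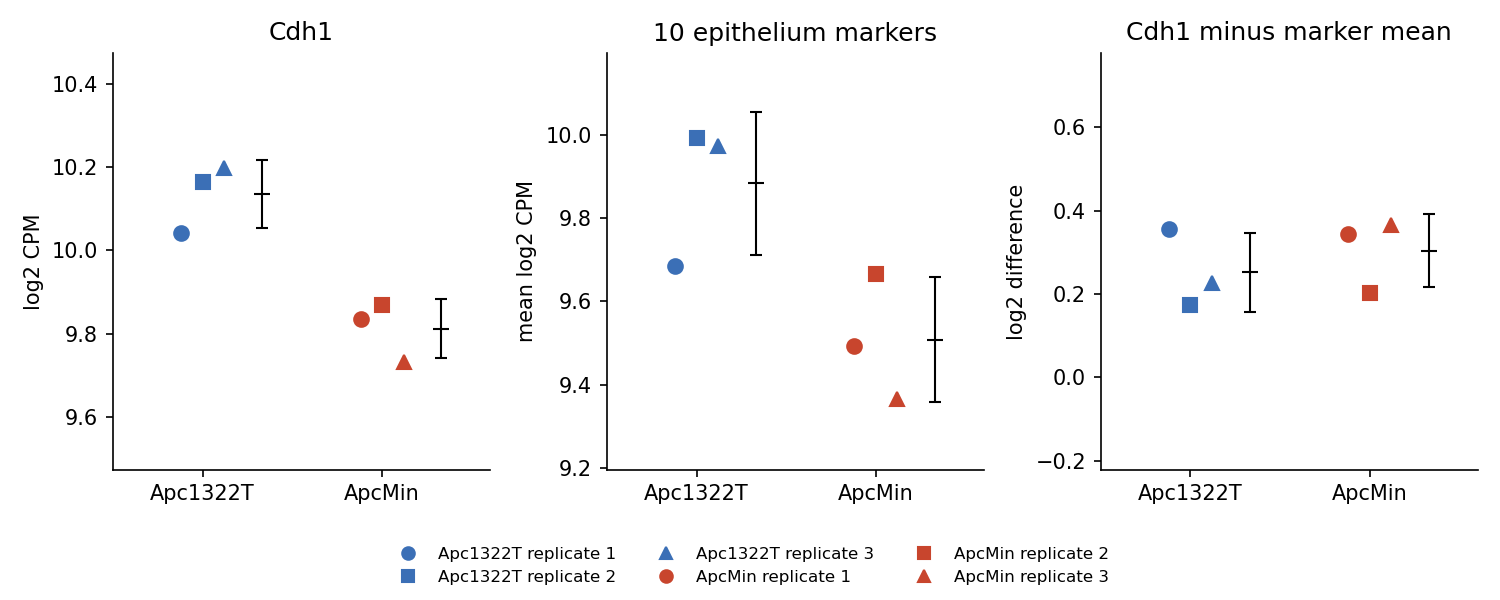
*Cdh1* in log2 CPM (left), the mean log2 CPM of the 10 epithelial markers (middle) and the difference of the first minus the second (right) in each library, with the mean and SD (n = 3) as black bars. The 3 panels span the same range. *Cdh1* separates the genotypes in the left panel, and the groups overlap in the right panel, where their means differ by 0.052.

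**Figure D4:**
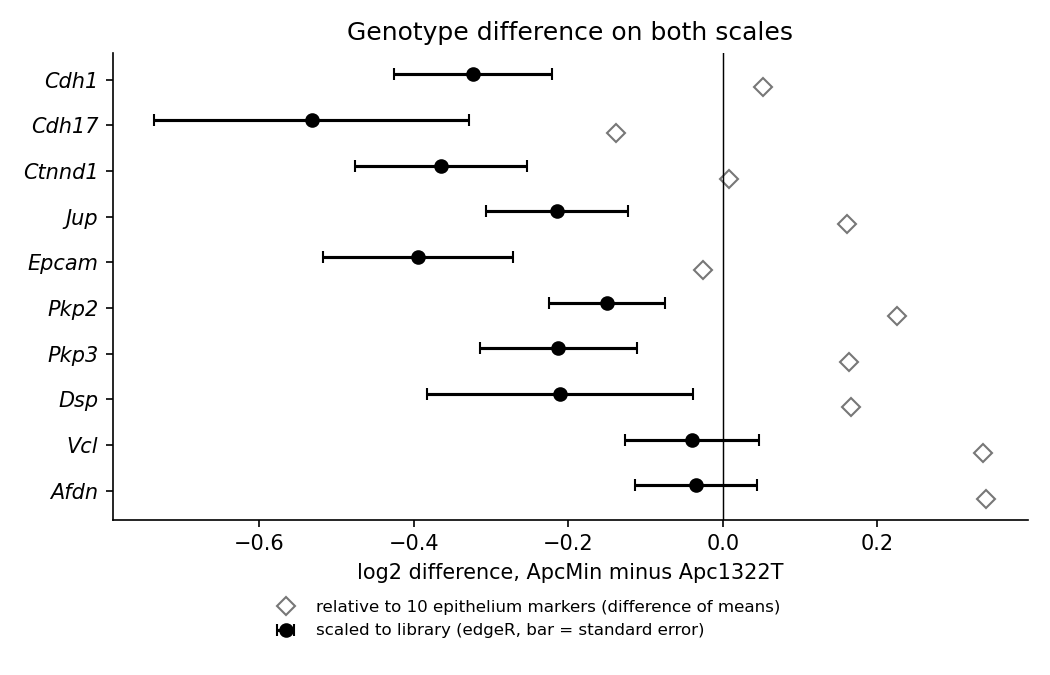
Difference between the genotypes for each of the 10 genes, ApcMin minus Apc1322T, on the log2 scale. Filled circles with bars are the edgeR log2 fold change and its standard error, and open diamonds the difference of means relative to the epithelial markers, which have no bar. All 10 circles lie below 0, from -0.53 to -0.035 (with upper quartile scaling *Vcl* and *Afdn* would lie above it), and 8 of the 10 diamonds lie above 0.

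Markers of most other cell types were higher in ApcMin adenomas. All 7 fibroblast markers were higher in ApcMin, with a median log2 fold change of 1.00 and sums of between 670 and 1644 CPM in Apc1322T and between 1083 and 3467 CPM in ApcMin libraries. Without ApcMin replicate 1 this median was 0.34. *Col1a1*, the most abundant, ranged from 7.69 to 9.11 log2 CPM in Apc1322T and from 8.12 to 10.19 in ApcMin libraries, and its log2 fold change of 0.84 became 0.0052 without ApcMin replicate 1. All 5 smooth muscle markers were higher (median 0.63, between 115 and 228 CPM against between 244 and 350 CPM), *Acta2* being the most abundant with a log2 fold change of 0.59. The 5 endothelial markers were higher as well (median 0.31, between 83.4 and 107 CPM against between 90.5 and 141 CPM), except that without ApcMin replicate 1 only 2 of the 5 were (median -0.020, against 0.51 without ApcMin replicate 2), and *Pecam1*, the most abundant, differed by 0.26, or by -0.020 without that library. Of 6 leukocyte markers 5 were higher (median 0.59, between 93.0 and 111 CPM against between 104 and 348 CPM), with *Lyz2* at 8.02 log2 CPM in ApcMin replicate 1 and at or below 6.09 elsewhere, and without that library the median was 0.21. All 5 squamous markers tested, of 7, were higher (median 2.51), but at sums of no more than 50.2 CPM in any library, with *Krt14* at a log2 fold change of 2.51 (adjusted p = 0.048, edgeR). None of the marker lists has a gene at 0 in all 6 libraries. By edgeR 0 markers passed the adjusted p of 0.01, and by DESeq2 *Cldn3*, *Pdgfra*, *Krt14*, *Krt4* and *Krt6a* did. The part of these shifts in the differences of the 10 adhesion genes was not tested, and the ratios to the epithelial markers are descriptions.

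**Figure D5:**
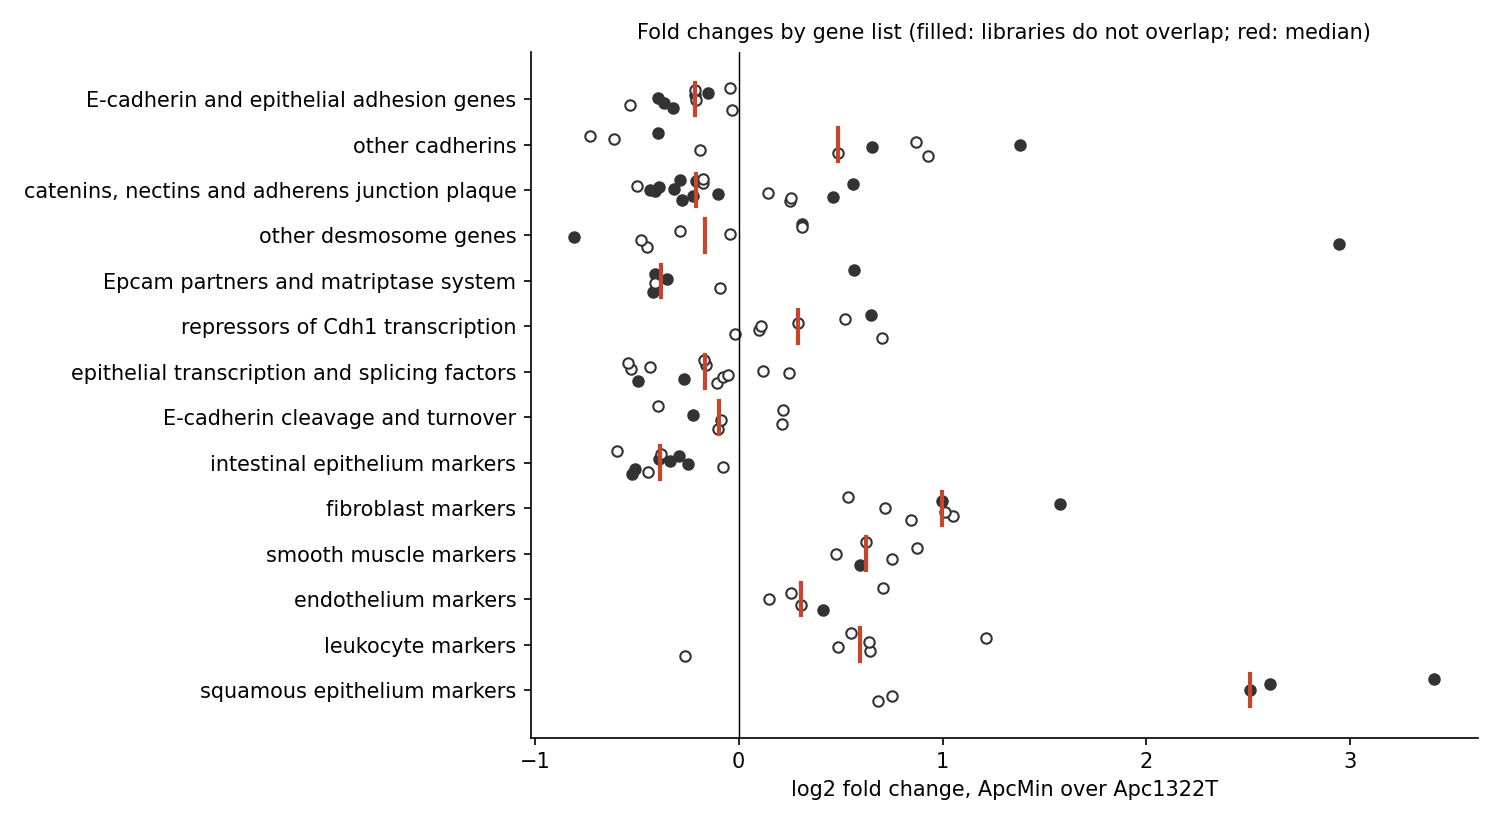
Log2 fold change (ApcMin over Apc1322T) of each tested gene in the 10 adhesion genes, the 7 lists of related genes and the 6 lists of cell type markers. Filled points are genes whose libraries do not overlap between the genotypes, and red bars are list medians. The adhesion genes (median -0.21) lie beside the epithelial markers (-0.39), while the medians of the stromal, leukocyte and squamous marker lists lie above 0.

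Levels of *Ctnnb1*, *Ctnna1*, *Jup*, *Ctnnd1* and *Epcam* were also compared with *Cdh1* within each library. *Ctnnb1* (β-catenin) and *Ctnna1* (α-catenin), named here in addition to the genes chosen by rule and after their values were seen, had log2 fold changes of -0.10 and -0.22. Ratios within a library were taken as log2 differences of CPM per kilobase of the longest transcript. That of *Ctnnb1* to *Cdh1* was 0.73, 0.62 and 0.54 in Apc1322T replicates 1, 2 and 3 and 0.78, 0.77 and 1.00 in ApcMin replicates 1, 2 and 3. It was higher in all 3 ApcMin libraries by 0.22 on average. *Jup* relative to *Cdh1* (-0.89 against -0.78) and *Ctnna1* relative to *Cdh1* (-0.45 against -0.35) were likewise higher in every ApcMin library than in any Apc1322T library. In contrast, *Ctnnd1* relative to *Cdh1* (-1.28 against -1.32) and *Epcam* relative to *Cdh1* (2.38 against 2.30) overlapped between the genotypes. Since *Cdh1* was chosen for being lower in ApcMin, a ratio over *Cdh1* carries that choice, and no test is given.

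Among the other genes of the adherens junction plaque, 17 of the 19 listed were tested, 12 were lower and 5 higher in ApcMin, and the median log2 fold change was -0.21. At an unadjusted p under 0.05, 7 were lower, namely *Actn4* (-0.28), *Vasp* (-0.29), *Lima1* (-0.41), *Lmo7* (-0.44), *Nectin1* (-0.32), *Nectin2* (-0.39) and *Nectin3* (-0.50). The first 4 encode actin-binding or actin-associated proteins, and the nectins are adhesion receptors that bind afadin inside the cell. *Nectin4* (0.56) and *Arvcf* (0.46), a relative of p120-catenin, were higher by the same measure. *Nectin2* is an example of the lower genes, at 7.24, 7.62 and 7.56 log2 CPM in Apc1322T replicates 1, 2 and 3 and at 7.20, 7.04 and 7.03 in ApcMin replicates 1, 2 and 3. The count of 7 became 1 without Apc1322T replicate 2 or 3, 2 without ApcMin replicate 3, 3 without ApcMin replicate 1, 4 without ApcMin replicate 2 and 10 without Apc1322T replicate 1, and the count of 2 higher genes was between 1 and 4. Over all genes tested 7.60% were lower and 7.49% higher by this measure, which is the background for the lists below as well. In either direction their number ranged from 1180 of 17059 without Apc1322T replicate 2 to 4117 of 16851 without Apc1322T replicate 1. By edgeR 0 of the 17 passed the adjusted p of 0.01, and likewise 0 by DESeq2 and limma-voom.

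The other cadherins differed in both directions. Of 13 listed 9 were tested, 4 lower and 5 higher, with a median log2 fold change of 0.49. The median was 0.23 without ApcMin replicate 3, where 10 genes passed the filter, and 0.76 without Apc1322T replicate 1. It turned to -0.25, with 4 lower and 2 higher, when at least 10 CPM in 3 libraries were required. *Cdh5*, the cadherin of endothelial cells, was higher without overlap, at 5.33, 4.27 and 4.13 log2 CPM in Apc1322T replicates 1, 2 and 3 and at 5.85, 5.80 and 6.44 in ApcMin replicates 1, 2 and 3. Its log2 fold change was 1.38 with a standard error of 0.37 (adjusted p = 0.279, edgeR), and it was the one gene of the adhesion lists that passed 0.01 with DESeq2. *Cdhr5*, a cadherin that joins the tips of microvilli, was lower by the unadjusted p (-0.73), as was *Pcdh1* (-0.40). *Cdhr5* overlapped through Apc1322T replicate 1, at 9.29 log2 CPM against 10.11 and 10.04 in the others, the pattern seen for *Cdh17*. The count of 2 lower cadherins was 1 without Apc1322T replicate 2 or 3 and without ApcMin replicate 1 or 3, and 3 without either of the others, and without Apc1322T replicate 1 there were 3 higher ones in place of 1.

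In the desmosome list 8 of 10 genes were tested, 5 lower and 3 higher (median -0.16). This median was -0.021 without Apc1322T replicate 3, -0.046 without ApcMin replicate 3, -0.31 without Apc1322T replicate 1 and -0.35 without ApcMin replicate 2, and all 10 genes gave 0.14 with no filter on low counts and 0.12 with DESeq2. The desmoglein and desmocollin of simple epithelia, *Dsg2* (-0.48) and *Dsc2* (-0.45), were lower by the unadjusted p, both with overlap. *Dsg2* stood at 8.74, 8.99 and 9.22 log2 CPM in Apc1322T replicates 1, 2 and 3 and at 8.34, 8.80 and 8.37 in ApcMin replicates 1, 2 and 3. Cadherins of stratified epithelia were expressed at much lower levels and did not go one way, since *Dsg3* was lower (-0.81) and *Dsc3* higher (2.95). *Dsc3* had 1119 counts in ApcMin replicate 3 and between 18 and 182 in each of the others, and without ApcMin replicate 3 its log2 fold change was 1.51. *Ppl* (0.31), for periplakin, a plakin that binds the cornified envelope and keratins, was higher. The 3 lower and 2 higher genes by the unadjusted p were 0 and 0 without Apc1322T replicate 2, 0 and 1 without Apc1322T replicate 3, 0 and 2 without ApcMin replicate 1, 1 and 1 without ApcMin replicate 3, and 3 and 3 without Apc1322T replicate 1.

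The partners of EpCAM were mostly lower. All 6 genes listed were tested, 5 were lower (median -0.38), and 3 of these were so by the unadjusted p and without overlap: *Cldn7* (-0.42), for the claudin that EpCAM binds, *St14* (-0.41), for matriptase, which cleaves EpCAM, and *Spint2* (-0.35), for the inhibitor of matriptase. *St14* stood at 9.06, 9.23 and 9.16 log2 CPM in Apc1322T replicates 1, 2 and 3 and at 8.67, 8.84 and 8.70 in ApcMin replicates 1, 2 and 3 (adjusted p = 0.257, edgeR). The count of 3 lower genes was 1 without Apc1322T replicate 2 or without ApcMin replicate 3, 2 without Apc1322T replicate 3, and 4 without Apc1322T replicate 1.

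Repressors of *Cdh1* transcription, the Snail, Zeb, Twist and E2A factors, bind E-box letters in promoters. Of the 8 listed 7 were tested, and 0 were lower or higher by the unadjusted p, with 6 above 0 and a median log2 fold change of 0.29. Without ApcMin replicate 1 the median was 0.028, with 3 below 0 and 4 above. It was 0.72 without ApcMin replicate 3, 0.50 without Apc1322T replicate 3 and 0.50 without ApcMin replicate 2. These medians are not all over the same genes. Without ApcMin replicate 3, or without any of the Apc1322T replicates, all 8 passed the filter on low counts. The most abundant was *Tcf3*, at 6.68, 6.43 and 6.47 log2 CPM in Apc1322T replicates 1, 2 and 3 and at 6.67, 6.64 and 6.62 in ApcMin replicates 1, 2 and 3 (0.11, standard error 0.093, adjusted p = 0.569, edgeR). *Zeb2*, which is also expressed in fibroblasts and leukocytes, stood at 3.00, 2.76 and 3.08 against 4.20, 3.12 and 3.18 in the same order (0.65, standard error 0.32, adjusted p = 0.374, edgeR), with ApcMin replicate 1 far above the rest. The number higher by the unadjusted p was 1 or 2 without Apc1322T replicate 1 or 3 or without ApcMin replicate 2 or 3.

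The letters CACCTG, or CAGGTG on the other strand, are the core to which Snail and Zeb factors bind, and they were looked for in the RefSeq promoter sequences (GRCm38.p6, 250 bases before to 50 after the start). Of the 10 genes 6 had an entry, *Ctnnd1* with both of its starts, and *Cdh1*, *Cdh17*, *Pkp2* and *Pkp3* had none. *Epcam* held the letters at 2 places, beginning 187 and 19 bases before the start, and *Dsp* at 1 place just after it, whereas *Ctnnd1*, *Jup*, *Vcl* and *Afdn* held none. Over all 32851 promoters of this length 20.2% held the letters. The promoters of the 2 genes that hold them are shown, with the letters in capitals.
Epcam, chr17:87635729-87636028, plus strand: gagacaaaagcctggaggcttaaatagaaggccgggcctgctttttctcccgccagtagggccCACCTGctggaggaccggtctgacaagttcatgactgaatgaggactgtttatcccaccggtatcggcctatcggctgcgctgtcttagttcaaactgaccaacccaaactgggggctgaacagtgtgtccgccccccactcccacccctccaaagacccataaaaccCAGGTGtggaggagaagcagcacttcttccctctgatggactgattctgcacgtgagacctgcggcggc
Dsp, chr13:38151044-38151343, plus strand: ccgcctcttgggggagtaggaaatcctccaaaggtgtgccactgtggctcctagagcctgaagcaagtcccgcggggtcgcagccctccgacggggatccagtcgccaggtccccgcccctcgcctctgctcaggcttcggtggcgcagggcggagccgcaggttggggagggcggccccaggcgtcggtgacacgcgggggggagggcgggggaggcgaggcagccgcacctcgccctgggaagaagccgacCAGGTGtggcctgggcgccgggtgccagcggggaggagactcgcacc
The motif CTTTGAT, or ATCAAAG on the other strand, a core bound by the TCF factors that work with β-catenin, was in none of the 6 and in 3.73% of all promoters. These matches are descriptions of letters, and occupancy was not measured here.

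Of the factors that maintain epithelial transcription and splicing, all 12 listed were tested, with 10 lower and 2 higher and a median log2 fold change of -0.16. By the unadjusted p 4 were lower: *Elf3* (-0.27), *Ovol1* (-0.54), *Hnf4a* (-0.53) and *Cdx2* (-0.49), the last 2 being identity factors of intestinal epithelium. *Hnf4a* stood at 8.89, 9.38 and 9.42 log2 CPM in Apc1322T replicates 1, 2 and 3 and at 8.74, 8.97 and 8.40 in ApcMin replicates 1, 2 and 3. Its highest ApcMin library thus exceeded Apc1322T replicate 1, while *Cdx2* and *Elf3* did not overlap. The count of 4 was 0 without Apc1322T replicate 2 or ApcMin replicate 3, and 1 without Apc1322T replicate 3 or ApcMin replicate 1. It was 2 without ApcMin replicate 2 and 5 without Apc1322T replicate 1, where 1 was also higher.

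For genes that cleave or turn over E-cadherin, all 6 listed were tested, 4 lower and 2 higher (median -0.095, or -0.042 with 3 lower and 3 higher without ApcMin replicate 3). *Cbll1* (-0.22), for the ubiquitin ligase Hakai, was lower by the unadjusted p, but no more than 1 of the 6 was so with any single library left out. In each of the lists of related genes described so far 0 genes passed the adjusted p of 0.01 with edgeR.

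The genes whose log2 CPM followed *Cdh1* most closely over the 6 libraries were *Mon1a* (Pearson r of 0.996), *Sppl2a* (0.996), *Plpp2* (0.995), *Ralgapa2* (0.992) and *Hbs1l* (0.992), among 13482 genes compared. With 3 libraries in each genotype, r mostly reflects the step between the genotypes, and 697 genes had an r over 0.9, so that a high value is common. *Ctnnd1* was the closest of the other 9 adhesion genes, with an r of 0.984 and position 13 of all genes. *Epcam* (0.959), *Jup* (0.946) and *Cdh17* (0.915) came next, then *Pkp3* (0.843), *Pkp2* (0.765) and *Dsp* (0.629), and *Afdn* (0.473) and *Vcl* (0.465) were the least alike.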

How the data were processed

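RNA-seq of 6 adenoma libraries, 3 of each genotype by the sample labels, was analysed. The authors quantified single-end stranded reads of 50 bases, from 1 μg of RNA per sample, against the GRCm38 transcriptome with Salmon and imported them with tximport, and the deposited estimated counts are summed per gene and not normalised. Of the values, 36.7% are not whole, so all were rounded. Salmon divides reads shared by near-identical transcripts, and a read shared with an overlapping gene on the same strand may be assigned to either.

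Symbols, coordinates and lengths were taken from GENCODE M21 for 34582 of 34866 genes. Genes were filtered with filterByExpr (minimum count 10, minimum total count 15), leaving 16536, normalised by TMM and tested by robust quasi-likelihood in edgeR 4.0.16 (R 4.3.3), with Benjamini-Hochberg adjustment over all genes tested and a threshold of 0.01. Standard errors are the absolute log2 fold change over the root of F. A prior count of 2 was used for log2 CPM. Positive values denote higher expression in ApcMin. DESeq2 1.42.0 and limma-voom (limma 3.58.1) were alternatives, and the fit was tested on simulated counts. The limit of 3 counts covers counting error only, whereas the SDs and standard errors include the spread between libraries.

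The 10 genes and all lists were chosen with earlier results of these data known. Named genes are the 10, list genes with an unadjusted p under 0.05 (otherwise the 2 most highly expressed), the 5 genes most like *Cdh1*, and the most abundant marker of each list. *Ctnnb1*, *Ctnna1*, *Cldn3*, *Pdgfra*, *Krt4* and *Krt6a* were added after their values were seen, as were the counts over lists with 1 library left out. Some genes that this rule selects are not reported here. The microarray, survival and staining experiments were not analysed here.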

Additional observations from a re-analysis of the deposited data

How the results depend on the processing

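Over the 6 fits that leave out 1 library, the log2 fold change of *Cdh1* ranged from -0.36 to -0.29, the median of the 10 genes from -0.31 to -0.18, the adhesion genes without overlap from 5 to 8 (8 without ApcMin replicate 2), and the genes of all those tested past an adjusted p of 0.01 from 0 to 1 (1 without ApcMin replicate 3). None of the 10 passed 0.01 under any scaling, filter or test tried, a count added after seeing the data. Of all genes, 1 passed with no filter on low counts, 194 with DESeq2, 1 at an adjusted p of 0.05 and 2495 at an unadjusted p of 0.05, beside 0 as reported.

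Relative to the epithelial markers the direction turned for *Cdh1* (0.052), *Ctnnd1* (0.0082), *Jup* (0.16), *Pkp2* (0.23), *Pkp3* (0.16), *Dsp* (0.17), *Vcl* (0.34), *Afdn* (0.34) and the median (0.16), and 3 genes did not overlap, all higher. This follows from the construction of that scale, which takes out the difference of -0.37 in the markers. *Vcl* and *Afdn* also turned with upper quartile scaling (0.018 and 0.023), with a filter of at least 10 CPM in 3 libraries (0.0015 and 0.0070), and over the fits with 1 library left out, where they ranged from -0.077 to 0.016 and from -0.062 to 0.00062, above 0 only without Apc1322T replicate 3. For these the cause was not tested. The level of *Jup* per length was above that of *Ctnnd1* with the longest transcript but differed by -0.34 with all exons merged and by -0.15 with coding length. *Pkp2* minus *Afdn* became -0.16 with merged exons, and *Afdn* minus *Vcl* became -0.11 with coding length.

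Replicate numbers are shared by the genotypes, but same-numbered libraries come from different mice, and their deviations correlated by -0.014, 0.16 and -0.29 for replicates 1, 2 and 3. With the replicate number as a block *Cdh1* differed by -0.32, the median by -0.21, and 0 genes passed 0.01. The median of the repressors of *Cdh1* transcription was 0.12 with this block, beside 0.29 without it.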
